A study of Mus musculus with 29 samples.

Results

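The genes described here are 10 target and feedback genes of Wnt/β-catenin signalling, measured in the aortic arch of mice: Axin2, Nkd1, Nkd2, Znrf3, Apcdd1, Bambi, Ccnd1, Prickle1, Twist1 and Lef1. They were chosen by name from the 51456 gene symbols in each deposited file, and all 10 were found. In this pathway a secreted Wnt ligand binds a Frizzled receptor and an LRP co-receptor, β-catenin escapes degradation, and together with TCF/LEF factors it switches on target genes. Several of those targets encode brakes on the pathway itself, so their transcripts are often read as a gauge of its activity. Sclerostin, the product of Sost, blocks the LRP co-receptors, and an antibody against it removes that block. In the artery wall sclerostin is made by smooth muscle cells.

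The study asked whether such an antibody (Scl-Ab) changes gene expression in the diseased aorta. All animals are labelled male C57BL/6 mice with an age of 14 weeks, on a chow diet. In the Scl-Ab group (10 libraries) the mice lacked apolipoprotein E in every cell (ApoE KO), carried a subcutaneous pump that delivered angiotensin II (AngII) from a solution of 15.27 mg/mL at a rate of 0.11 µL/hr, and received Scl-Ab at 10 mg/kg once a week for 4 weeks. In the vehicle group (9 libraries) the mice were ApoE KO with the same AngII pump and received vehicle injections. In the wild-type group (WT, 10 libraries) the pump held vehicle and the injections were vehicle. Both ApoE KO groups together are called the model below. The model and WT differ in both genotype and AngII, and the effects of the 2 cannot be told apart. The labels also describe a study of ovariectomized females on a high-fat diet, which is not analysed here. The treatment protocol gives 9 WT mice, so n = 10 in WT counts libraries.

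Values are the authors' length-scaled, FPKM-like expression values, and each group is summarised as the mean ± SD over its libraries. Fold changes compare the first-named group with the second on the log2(value + 1) scale of limma, which understates changes of low genes, and calls are at an adjusted p under 0.05 over 13510 tested genes. The libraries were of like depth, with an estimated 31.7 to 43.3 fragments behind each unit of value in a 2 kb gene. The labels were checked on Apoe, which averaged 8.39 ± 2.79 with Scl-Ab (n = 10), 6.71 ± 1.70 with vehicle (n = 9) and 264 ± 65.0 in WT (n = 10). Sost averaged 289 ± 118 with Scl-Ab (n = 10), 399 ± 141 with vehicle (n = 9) and 655 ± 108 in WT (n = 10), which placed sclerostin transcript in every group. The aortic smooth muscle markers were also abundant, with summed values of 12 genes of 7434 to 17931 with Scl-Ab, 6550 to 21131 with vehicle and 24514 to 28343 in WT.

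The promoter sequences of Axin2, Nkd1 and Nkd2 are shown because these 3 cytoplasmic feedback genes, which belong to one pathway, behaved differently from one another in the libraries. Each is a 300-base window around a RefSeq start site on GRCm38.p6, written 5′ to 3′ on the gene's strand, with every CG dinucleotide in capitals. The windows are chr11:108920099-108920398 on the plus strand for Axin2, chr8:88527383-88527682 on the plus strand for Nkd1 and chr13:73847582-73847881 on the minus strand for Nkd2.
Axin2: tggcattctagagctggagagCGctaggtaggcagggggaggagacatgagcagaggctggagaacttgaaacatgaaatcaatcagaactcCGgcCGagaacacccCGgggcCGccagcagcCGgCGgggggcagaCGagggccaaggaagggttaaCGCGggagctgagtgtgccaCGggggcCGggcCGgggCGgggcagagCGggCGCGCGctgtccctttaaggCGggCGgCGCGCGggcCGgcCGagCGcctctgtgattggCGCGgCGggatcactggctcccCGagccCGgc
Nkd1: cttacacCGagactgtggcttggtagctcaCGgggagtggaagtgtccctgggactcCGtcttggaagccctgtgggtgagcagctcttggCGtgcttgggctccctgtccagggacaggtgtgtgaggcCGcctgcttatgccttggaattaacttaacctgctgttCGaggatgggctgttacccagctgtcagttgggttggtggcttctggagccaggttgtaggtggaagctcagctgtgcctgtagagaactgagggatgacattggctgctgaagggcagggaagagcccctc
Nkd2: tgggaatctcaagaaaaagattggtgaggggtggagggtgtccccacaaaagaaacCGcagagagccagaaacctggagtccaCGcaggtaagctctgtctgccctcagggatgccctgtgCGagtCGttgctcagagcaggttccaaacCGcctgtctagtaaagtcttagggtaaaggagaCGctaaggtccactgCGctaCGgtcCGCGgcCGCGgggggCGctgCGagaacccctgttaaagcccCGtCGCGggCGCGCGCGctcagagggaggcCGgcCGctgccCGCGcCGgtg
The Axin2 window held 31 CG dinucleotides, the Nkd2 window 26 and the Nkd1 window 6, against a median of 7 over 32851 windows of the same length. A count of at most 6 was found in 47.9% of those windows, a count of at most 26 in 84.5% and a count of at most 31 in 90.5%. The Nkd1 window lay inside the GENCODE gene, which begins at position 88521354 of chromosome 8. The Axin2 and Nkd2 windows span the starts of their GENCODE genes, so the CG counts do not compare like with like. A link between these windows and the transcript levels was not tested. The TCF/LEF core motifs CTTTGAT and CTTTGTT were searched on both strands; a stretch of bases can match only 1 of the 2. Neither was present in these 3 windows or in the windows listed for Prickle1, Twist1 and Lef1, and 9.33% of all windows held at least 1 of them. This says only that those letters are not in these windows.

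In the vehicle-treated model the 10 genes did not move as a block. Ccnd1, Nkd2 and Apcdd1 were higher than in WT, Nkd1, Bambi, Prickle1 and Twist1 were lower, Axin2 and Znrf3 were not called, and Lef1 was too low to test. The called changes ran from 2.88-fold for Ccnd1 to 0.541-fold for Nkd1. These were 3 higher and 4 lower of 9 tested members, where 53.7% of all tested genes were called in this comparison, 22.7% higher and 31% lower. Of those calls 42.2% were higher, and 54.0% after TMM scaling. The members' median log2 fold change was -0.21, beside -0.04 over all tested genes. In bulk tissue, fewer cells of a type and less RNA per cell cannot be told apart.

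**Figure D1:**
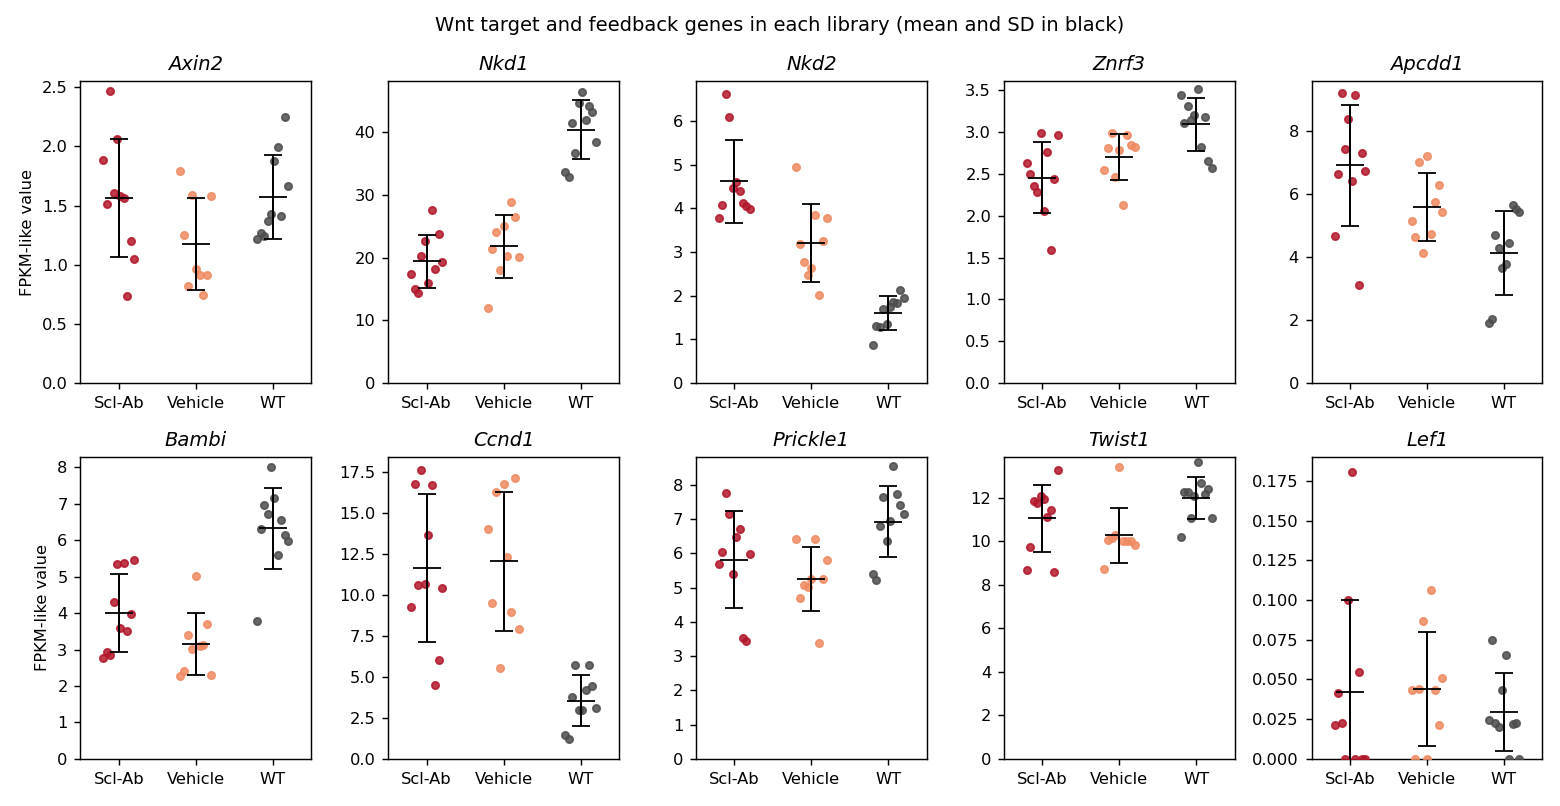
Value of each of the 10 genes (vertical axes, FPKM-like units, each panel from 0) in every library of the Scl-Ab (n = 10), vehicle (n = 9) and WT (n = 10) groups, with the mean and SD in black. Nkd1 lay below every WT library in both model groups, Nkd2 was highest with Scl-Ab, and Lef1 did not pass 0.18 in any library.

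Axin2 encodes a scaffold of the β-catenin destruction complex and is the most widely used readout of the pathway. It ranged from 0.737 to 2.46 with Scl-Ab (median 1.57), from 0.749 to 1.80 with vehicle (median 0.966) and from 1.22 to 2.25 in WT (median 1.42). The groups overlapped, although 5 of 9 vehicle libraries lay below every WT library. Its mean was 1.18 ± 0.389 with vehicle (n = 9) and 1.57 ± 0.358 in WT (n = 10), a log2 fold change of -0.25 (SE 0.11, 95% interval -0.48 to -0.02, limma adjusted p = 0.0630). Its mean over all libraries exceeded that of 8.50% of the tested genes, with an estimated 64.3 to 254 fragments per library. It was called lower in 10 of 42 alternative analyses, such as a fit of the 2 groups alone (limma adjusted p = 0.0423), and when vehicle replicate 1, 4 or 9 was left out.

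Nkd1 and Nkd2 encode the Naked cuticle proteins, which bind Dishevelled and dampen the signal inside the cell. Nkd1 ranged from 14.4 to 27.6 with Scl-Ab (median 18.7), from 12.04 to 28.96 with vehicle (median 21.4) and from 32.8 to 46.4 in WT (median 41.7). Every library of the model was below every WT library. The mean was 21.8 ± 5.05 with vehicle (n = 9) and 40.4 ± 4.71 in WT (n = 10), 0.541-fold (log2 -0.89, SE 0.12, limma adjusted p = 9.89e-07). Complete separation with vehicle below WT was found for 9.04% of all tested genes.

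Nkd2 went the other way. It ranged from 3.77 to 6.62 with Scl-Ab (median 4.25), from 2.02 to 4.96 with vehicle (median 3.17) and from 0.864 to 2.13 in WT (median 1.72). All but 1 of the vehicle libraries were above every WT library, and the exception was vehicle replicate 7. No member was higher with complete separation, which 7.81% of all tested genes were. The mean was 3.21 ± 0.884 with vehicle (n = 9) and 1.601 ± 0.385 in WT (n = 10), 1.61-fold on the fitted scale (log2 0.68, SE 0.11, limma adjusted p = 1.07e-05) and 2.00-fold as a ratio of means.

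Because both genes were read in the same library, the value of Nkd2 divided by that of Nkd1 does not depend on how a library was scaled. This ratio was 0.250 ± 0.0876 with Scl-Ab (n = 10), 0.165 ± 0.0999 with vehicle (n = 9) and 0.0396 ± 0.00846 in WT (n = 10). It ran from 0.159 to 0.459 with Scl-Ab, from 0.0698 to 0.411 with vehicle and from 0.0256 to 0.0505 in WT. All libraries of the model stood above all WT libraries, and Nkd1 remained the more abundant of the pair in every library. The ratio was formed after both changes were known and is a description.

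**Figure D2:**
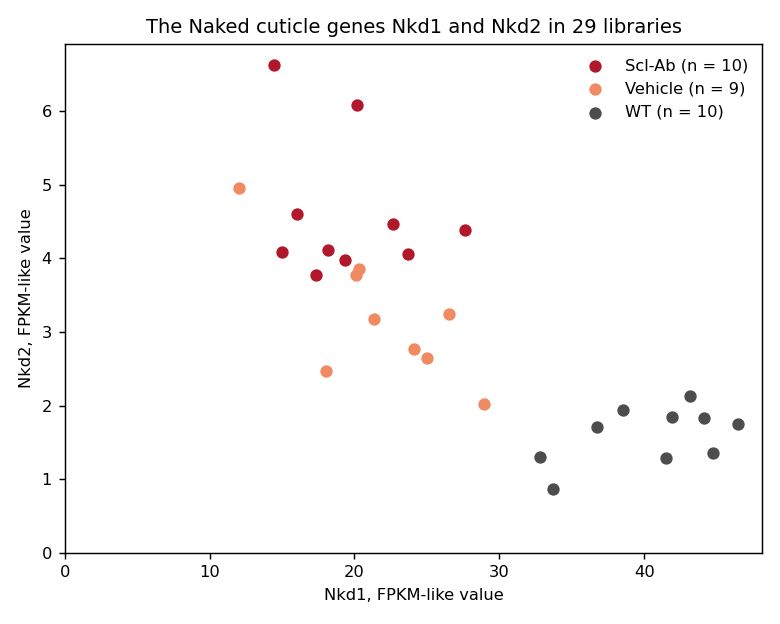
Nkd2 (vertical axis) against Nkd1 (horizontal axis) in 29 libraries, 1 point each, both in FPKM-like units. WT libraries sit at lower right, with Nkd1 of at least 32.8 and Nkd2 of at most 2.13, and the Scl-Ab and vehicle libraries sit at upper left.

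The next members encode proteins of the cell surface. Znrf3, a ubiquitin ligase that removes Frizzled receptors from the membrane, ranged from 1.59 to 2.99 with Scl-Ab (median 2.47), from 2.12 to 2.99 with vehicle (median 2.81) and from 2.57 to 3.51 in WT (median 3.16). The groups overlapped, with 3 of 9 vehicle libraries below all of WT. Its mean was 2.71 ± 0.277 with vehicle (n = 9) and 3.09 ± 0.318 in WT (n = 10), a log2 fold change of -0.14 (SE 0.07, 95% interval -0.28 to -0.002, limma adjusted p = 0.0805). Znrf3 was called lower in 5 of 42 alternatives, including the Wilcoxon test (adjusted p = 0.0262) and leaving out Scl-Ab replicate 17 or WT replicate 29.

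Bambi encodes a decoy receptor without a kinase domain that inhibits TGF-β and BMP receptors and is also a β-catenin target. It ranged from 2.76 to 5.46 with Scl-Ab (median 3.79), from 2.28 to 5.01 with vehicle (median 3.09) and from 3.79 to 8.00 in WT (median 6.43). All but 1 of the vehicle libraries lay below every WT library, and WT replicate 20 was the lowest of WT. The mean was 3.15 ± 0.856 with vehicle (n = 9) and 6.32 ± 1.12 in WT (n = 10), 0.564-fold (log2 -0.83, SE 0.12, limma adjusted p = 2.85e-06).

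Apcdd1 encodes a membrane glycoprotein that binds Wnt and LRP proteins and inhibits the pathway. It ranged from 3.12 to 9.22 with Scl-Ab (median 7.02), from 4.12 to 7.21 with vehicle (median 5.43) and from 1.90 to 5.65 in WT (median 4.36). Vehicle and WT overlapped, with 4 of 9 vehicle libraries above all of WT. Its mean was 5.59 ± 1.07 with vehicle (n = 9) and 4.14 ± 1.34 in WT (n = 10), 1.31-fold (log2 0.39, SE 0.16, limma adjusted p = 0.0423). The call was lost in 14 of 43 alternatives. WT replicates 20 and 21 were the lowest at 1.90 and 2.03, and without both the gene was at 0.21 on the log2 scale (limma adjusted p = 0.228). It was also lost when vehicle replicate 3, 5, 7, 8 or 9 or WT replicate 20, 21, 24 or 25 was left out.

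The remaining members are targets with roles outside the feedback loop. Ccnd1 encodes cyclin D1, which drives cells into S phase. It ranged from 4.53 to 17.6 with Scl-Ab (median 10.6), from 5.54 to 17.1 with vehicle (median 12.3) and from 1.21 to 5.74 in WT (median 3.42). Vehicle replicate 4, at 5.54, and Scl-Ab replicate 17, at 4.53, fell within the WT range, and the other libraries of both groups lay above it. The mean was 12.1 ± 4.26 with vehicle (n = 9) and 3.56 ± 1.55 in WT (n = 10), 2.88-fold on the fitted scale (log2 1.53, SE 0.24, limma adjusted p = 5.81e-06) and 3.39-fold as a ratio of means. The size of this fitted change exceeded that of 97.9% of all tested genes. Exons of Ccnd1 overlap those of LTO1 on the opposite strand, and whether the authors counted by strand is not given in the sources used here. LTO1 had a median of 11.97 and a highest value of 14.0 over the 29 libraries.

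Prickle1 encodes a planar cell polarity protein that promotes Dishevelled turnover. It ranged from 3.44 to 7.75 with Scl-Ab (median 6.00), from 3.38 to 6.41 with vehicle (median 5.24) and from 5.23 to 8.56 in WT (median 7.05). The groups overlapped, with 4 of 9 vehicle libraries below all of WT. The mean was 5.25 ± 0.928 with vehicle (n = 9) and 6.92 ± 1.04 in WT (n = 10), 0.787-fold (log2 -0.35, SE 0.12, limma adjusted p = 0.0133). The call was lost after TMM scaling (limma adjusted p = 0.0508), after removal of GC and length trends (limma adjusted p = 0.0511) and with a clock covariate (limma adjusted p = 0.0770).

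Twist1 encodes a basic helix-loop-helix factor of mesenchymal cells. It ranged from 8.60 to 13.3 with Scl-Ab (median 11.6), from 8.72 to 13.4 with vehicle (median 10.0) and from 10.2 to 13.6 in WT (median 12.2). All vehicle libraries except replicate 5 lay between 8.72 and 10.3, and 7 of 9 were below all of WT. The mean was 10.3 ± 1.26 with vehicle (n = 9) and 11.99 ± 0.967 in WT (n = 10), 0.866-fold (log2 -0.21, SE 0.07, limma adjusted p = 0.0157). The call was lost after TMM scaling, with equal totals and with the clock covariate (limma adjusted p = 0.0789), and the direction turned once GC and length trends were removed (log2 0.032, limma adjusted p = 0.763).

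Lef1 encodes one of the TCF/LEF partners of β-catenin and is itself a target, typically abundant in T cells and thymocytes. It ranged from 0 to 0.180 with Scl-Ab (median 0.0221), from 0 to 0.106 with vehicle (median 0.0436) and from 0 to 0.0750 in WT (median 0.0226). It was at 0 in 4 of 10 Scl-Ab, 2 of 9 vehicle and 2 of 10 WT libraries, and its highest value stood for an estimated 34.1 fragments. T cell transcripts were present at low levels: the summed value of 18 T cell genes was 8.02 to 16.8 with Scl-Ab, 7.08 to 17.6 with vehicle and 1.50 to 3.54 in WT. Only 2 of the 18 passed the filter, Il7r and Trbc2. Il7r alone averaged 2.77 ± 1.24 with Scl-Ab (n = 10), 5.36 ± 2.21 with vehicle (n = 9) and 0.0740 ± 0.0226 in WT (n = 10), a large part of the sums in the model. Of the 8 thymocyte genes, Rag2 was at 0 in 28 of 29 libraries, Dntt in 25, Rag1 in 22, Ptcra in 17 and Themis in 13. Cd1d1, Arpp21 and Aqp11 were above 0 in every library. The highest value of Cd1d1 was 40.7 with Scl-Ab, 48.8 with vehicle and 14.9 in WT. It was not called for vehicle against WT, Scl-Ab against vehicle or Scl-Ab against WT (limma adjusted p = 0.221, 0.706 and 0.0602). The summed thymocyte values, mostly Cd1d1, were lowest and highest in the same libraries of each group as the summed adipocyte values. The part of these cells in the Lef1 values was not tested. No difference in Lef1 was detectable at this depth: fitted without a filter on low values, its limma adjusted p was 0.638 for vehicle against WT.

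**Figure D3:**
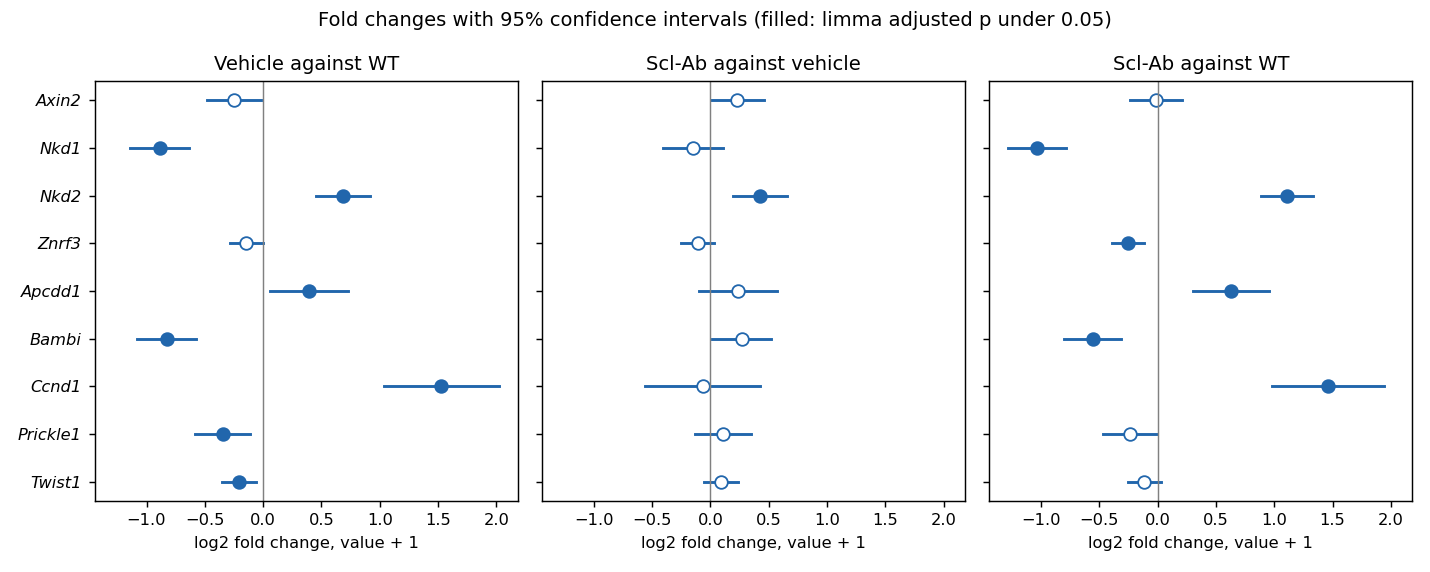
Log2 fold change of each of the 9 tested genes (horizontal axes, log2 of value + 1) with its 95% interval, for vehicle against WT, Scl-Ab against vehicle and Scl-Ab against WT. Filled points have a limma adjusted p under 0.05, and Nkd2 is the filled point between Scl-Ab and vehicle.

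The second comparison asked what Scl-Ab did in the model. Of the 9 tested members, Nkd2 rose and the other 8 were not called, where 7.44% of all tested genes were called, 2.64% higher and 4.8% lower. Of those calls 35.4% were higher, and 65.0% of 369 calls with values scaled to equal totals. Nkd2 averaged 4.62 ± 0.956 with Scl-Ab (n = 10) and 3.21 ± 0.884 with vehicle (n = 9), 1.34-fold (log2 0.43, SE 0.11, limma adjusted p = 0.0216) and 1.44-fold as a ratio of means. The groups overlapped: 2 of 10 Scl-Ab libraries, replicates 12 and 13 at 6.62 and 6.08, were above all vehicle libraries. The highest vehicle library, replicate 1 at 4.96, lay above the Scl-Ab median. No member separated these groups completely, where 0.0296% of all tested genes did so with Scl-Ab higher and 0.111% with Scl-Ab lower.

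The Nkd2 call was kept when any 1 of the 29 libraries was left out (limma adjusted p at most 0.0441) and with a term for the range of the title codes. It missed the threshold in 9 of 47 alternatives. Those 29 leave-outs are counted in the 47, so all 9 losses came from the other, fewer changes of method. Among the 9 were the Wilcoxon test (adjusted p = 0.0542), a fit of the 2 groups alone (limma adjusted p = 0.0569) and no filter on low values (limma adjusted p = 0.0522). Within the libraries with title codes 12 to 15 (4 Scl-Ab and 4 vehicle) Nkd2 had a log2 fold change of 0.50 (limma adjusted p = 0.485), and within codes 27 to 33 (6 Scl-Ab and 5 vehicle) one of 0.38 (limma adjusted p = 0.131). A code here is the last 2 digits of the 4-digit number that opens a title, whose meaning is not given in the labels.

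Circadian clock genes also moved between these groups. An index of them, the mean log2 value of genes that peak with Dbp minus that of genes in the opposite phase, was 3.01 ± 0.635 with Scl-Ab (n = 10), 0.577 ± 1.16 with vehicle (n = 9) and 2.53 ± 1.55 in WT (n = 10). It ran from 1.76 to 3.90 with Scl-Ab and from -1.22 to 2.20 with vehicle. The 2 ranges barely overlapped, so a fit with both cannot tell the index from the treatment. With this index as a covariate Nkd2 had a log2 fold change of 0.32 (limma adjusted p = 0.794), beside 0.43 without it. Across the genome 3 genes were called between Scl-Ab and vehicle with the index, against 1005 without it. Within a group, Nkd2 followed the index in WT (Pearson r = 0.879, Spearman rho = 0.964, n = 10, permutation p = 0.00065, adjusted p = 0.00195 over 3 relations). The other groups did not pass, with r = -0.180 for Scl-Ab (n = 10, permutation p = 0.624) and r = -0.355 for vehicle (n = 9, exact permutation p = 0.349). Without the 2 WT libraries farthest from the median index, r was 0.892. These relations were added after the values were seen, and the difference between groups was not tested. In WT the index tended to rise with the replicate number, from 0.618 in replicate 20 to 4.34 in replicate 29. Nkd2 did the same, from 0.864 to 1.95, so the clock and the order of the WT libraries cannot be told apart.

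The other 8 members gave these values for Scl-Ab against vehicle. Axin2 averaged 1.57 ± 0.499 with Scl-Ab (n = 10) and 1.18 ± 0.389 with vehicle (n = 9), a log2 fold change of 0.23 (95% interval 0.002 to 0.46, limma adjusted p = 0.197). Bambi averaged 4.01 ± 1.07 with Scl-Ab and 3.15 ± 0.856 with vehicle, a log2 fold change of 0.27 (95% interval 0.01 to 0.52, limma adjusted p = 0.174). For each of these genes 3 of 10 Scl-Ab libraries exceeded all vehicle libraries. At an unadjusted p under 0.05, these 2 and Nkd2 were the 3 of 9 members that passed, all higher with Scl-Ab, where 3378 of 13510 tested genes passed.

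Apcdd1 averaged 6.91 ± 1.91 with Scl-Ab (n = 10) and 5.59 ± 1.07 with vehicle (n = 9), with 5 of 10 Scl-Ab libraries above and 1 below all vehicle libraries (log2 0.23, 95% interval -0.10 to 0.57, limma adjusted p = 0.396). Nkd1 averaged 19.4 ± 4.20 with Scl-Ab and 21.8 ± 5.05 with vehicle (log2 -0.15, 95% interval -0.40 to 0.10, limma adjusted p = 0.489). Ccnd1 averaged 11.6 ± 4.51 with Scl-Ab and 12.1 ± 4.26 with vehicle (log2 -0.07, 95% interval -0.56 to 0.43, limma adjusted p = 0.903). The Ccnd1 interval is wide, with values from 4.53 to 17.6 within the Scl-Ab group, and its sign changed within title codes 12 to 15, in the 16 libraries whose title codes both groups share, and when Scl-Ab replicate 17 or 18 or vehicle replicate 8 was left out. For Znrf3, Prickle1 and Twist1 the log2 fold changes were -0.11, 0.11 and 0.09 (limma adjusted p = 0.354, 0.614 and 0.455).

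The third comparison set Scl-Ab against WT. It reuses the WT libraries of the first and the Scl-Ab libraries of the second, so it is not independent of them. Here 3 members were higher, 3 lower and 3 not called of 9, where 50.4% of all tested genes were called, 19.8% higher and 30.5% lower. Of those calls 39.4% were higher, against 54.4% with TMM scaling and 50.6% once GC and length trends were taken out. Nkd2 was 2.16-fold (log2 1.11, SE 0.11, limma adjusted p = 2.21e-09), with all 10 Scl-Ab libraries above all of WT, a separation found for 5.74% of all tested genes. Nkd1 was 0.488-fold (log2 -1.03, SE 0.12, limma adjusted p = 4.53e-08), with all 10 below all of WT, found for 6.54% of genes. Ccnd1 was 2.75-fold (limma adjusted p = 7.50e-06), Apcdd1 1.55-fold (limma adjusted p = 0.00159), Bambi 0.679-fold (limma adjusted p = 0.000335) and Znrf3 0.841-fold (limma adjusted p = 0.00276).

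Axin2 had nearly the same mean with Scl-Ab, 1.57 ± 0.499 (n = 10), as in WT, 1.57 ± 0.358 (n = 10), with a log2 fold change of -0.02 (95% interval -0.24 to 0.21, limma adjusted p = 0.909). Its sign turned in 9 of 42 alternatives. Prickle1 and Twist1 were not called against WT (log2 -0.24 and -0.12, limma adjusted p = 0.0789 and 0.165). Prickle1 was called lower with the adipocyte covariate (limma adjusted p = 0.0206), without WT replicates 20 and 21 together (limma adjusted p = 0.0269), without Scl-Ab replicate 12 (limma adjusted p = 0.0392) and without WT replicate 21 (limma adjusted p = 0.0477). The 6 called members kept their calls and directions under every alternative in which they were tested.

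Genes around the members were described by lists of the same pathway and of processes that the members serve. Of 25 other reported Wnt targets, 17 were tested, and in vehicle against WT 8 were higher, 3 lower and 6 not called, with a median log2 fold change of 0.18 beside -0.04 over all tested genes. Of all tested genes 22.7% were higher and 31% lower. Wisp1, which encodes a matricellular CCN protein, averaged 7.31 ± 2.02 with vehicle (n = 9) and 1.39 ± 0.363 in WT (n = 10), 3.41-fold (limma adjusted p = 7.65e-08). Wisp2, of the same family, was 2.62-fold (limma adjusted p = 7.41e-07), and Cd44, the hyaluronan receptor, was 2.39-fold (limma adjusted p = 1.10e-09). With Scl-Ab against vehicle 2 of the 17 were higher and none was lower (limma), beside 2.64% higher and 4.8% lower of all tested genes. These were Ephb3, an ephrin receptor, at 1.51-fold (limma adjusted p = 0.0121), and Gja1, the gap junction protein connexin 43, at 1.48-fold (limma adjusted p = 0.0337). Ephb3 averaged 5.02 ± 1.46 with Scl-Ab (n = 10), 2.92 ± 0.571 with vehicle (n = 9) and 4.68 ± 1.15 in WT (n = 10). Untested, at low values, were Sp5, Tcf7, Lgr5, Rnf43, Notum, Mycn, Tnfrsf19 and Msx2.

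The 31 genes of the β-catenin machinery itself were all tested, and in vehicle against WT 4 were higher, 16 lower and 11 not called (median log2 -0.17). Of all tested genes 53.7% were called, 22.7% higher and 31% lower. After removal of GC and length trends 5 were higher and 10 lower, where 6975 of 13510 tested genes were called, 50.1% of them higher. Gsk3a, a kinase that marks β-catenin for degradation, averaged 31.1 ± 2.42 with vehicle (n = 9) and 42.6 ± 2.49 in WT (n = 10), 0.737-fold (limma adjusted p = 5.10e-09). Amer1, a membrane-bound partner of the destruction complex, was 0.769-fold (limma adjusted p = 6.78e-07), and Aes, a Groucho-related co-repressor, was 0.649-fold (limma adjusted p = 1.30e-06). Between Scl-Ab and vehicle 3 were higher and 2 lower (median log2 0.02), beside 2.64% higher and 4.8% lower of all tested genes. The smallest p was that of Csnk1e, a kinase of Dishevelled, at 1.17-fold (limma adjusted p = 0.00779).

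Planar cell polarity genes, the group of Prickle1, were mixed in vehicle against WT: 3 of 11 tested were higher, 3 lower and 5 not called (median log2 0.05), and with a clock covariate 3 were lower and none higher (limma). Without that covariate 22.7% of all tested genes were higher and 31% lower. With it 5576 of 13510 were called, 40.4% of them higher. Celsr2 was 0.709-fold (limma adjusted p = 1.03e-05), Scrib 0.806-fold (limma adjusted p = 5.95e-05) and Prickle3 0.729-fold (limma adjusted p = 0.000218). Between Scl-Ab and vehicle 2 of 11 were higher and none lower (limma), beside 2.64% higher and 4.8% lower of all tested genes, with Scrib at 1.16-fold (limma adjusted p = 0.0292). Among 16 cell cycle genes, set beside Ccnd1, 11 were higher, 2 lower and 3 not called in vehicle against WT (median log2 0.55). Cdk1, the mitotic kinase, averaged 4.72 ± 1.63 with vehicle (n = 9) and 0.962 ± 0.343 in WT (n = 10), 2.88-fold (limma adjusted p = 6.50e-07). Mki67 was 2.35-fold (limma adjusted p = 6.50e-07) and Top2a 2.44-fold (limma adjusted p = 1.50e-06). In Scl-Ab against vehicle 0 of 16 were called by limma or the Wilcoxon test, and 1 passed at an unadjusted p under 0.05 (3378 of 13510 tested genes did), Cdk4 at 1.12-fold (limma adjusted p = 0.110).

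Of 12 TGF-β and BMP feedback genes, set beside Bambi, 6 were lower, 3 higher and 3 not called in vehicle against WT (median log2 -0.25). In that comparison 31% of all tested genes were lower and 22.7% higher. Id2 was 0.485-fold (limma adjusted p = 1.10e-06), Atoh8 0.442-fold (limma adjusted p = 8.50e-06) and Smad6, an inhibitory SMAD, 0.617-fold (limma adjusted p = 0.000197). With a clock covariate, 5 were lower and none higher (limma), where 5576 of 13510 tested genes were called, 40.4% of them higher. With Scl-Ab against vehicle 0 of 12 were called by limma or the Wilcoxon test, and 3 passed at an unadjusted p under 0.05, where 3378 of 13510 tested genes did. With the adipocyte covariate 1 of 12 was higher (limma), where 1562 of 13510 tested genes were called, 40.3% of them higher. Of 10 mesenchymal transcription factors, set beside Twist1, 3 were higher, 1 lower and 6 not called in vehicle against WT (median log2 0.11). After TMM scaling 4 were higher and none lower (limma), where 7038 of 13510 tested genes were called, 54.0% of them higher. Snai1 was 1.79-fold (limma adjusted p = 7.89e-05), Tcf4 1.44-fold (limma adjusted p = 5.93e-06) and Zeb2 1.26-fold (limma adjusted p = 0.0351). Tcf4 is a different gene from Tcf7l2 of the β-catenin machinery list, which was 0.678-fold (limma adjusted p = 4.24e-06). With Scl-Ab against vehicle 0 of 10 were called by limma or the Wilcoxon test, and 6 passed at an unadjusted p under 0.05, 5 of them higher. Of all tested genes 3378 of 13510 passed, with both directions counted together. Once GC and length trends were removed, 2 of 10 were higher (limma), where 694 of 13510 tested genes were called, 41.1% of them higher.

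**Figure D4:**
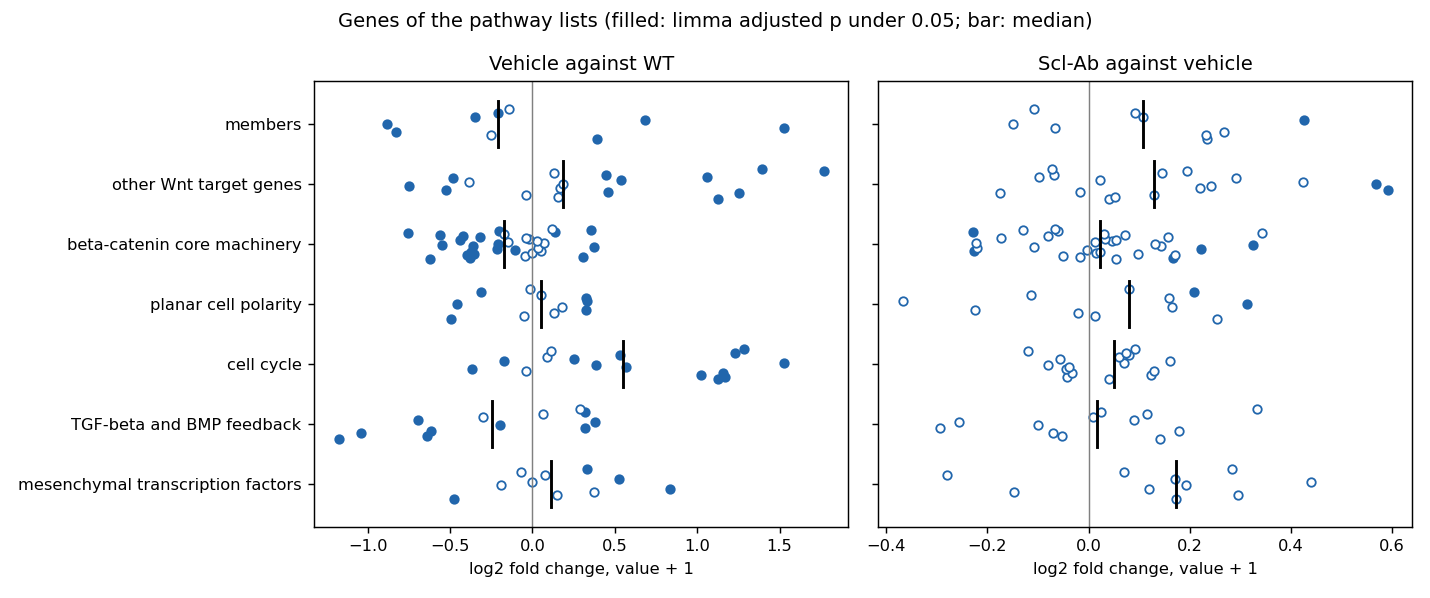
Log2 fold change (horizontal axes, log2 of value + 1) of every tested gene of the members and of 6 related lists, for vehicle against WT and for Scl-Ab against vehicle, which have different scales. Filled points have a limma adjusted p under 0.05, black bars are medians, and the cell cycle list has the highest median in vehicle against WT (0.55).

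Transcripts that mark the cell types of the tissue differed between the groups alongside these genes. In vehicle against WT, 14 of 14 macrophage genes were higher and 12 of 12 smooth muscle genes lower (limma), with summed macrophage values of 1067 to 2512 with Scl-Ab, 1334 to 3998 with vehicle and 143 to 456 in WT. Of 12 endothelial genes 7 were higher, and of 12 fibroblast genes 5 were higher, with none lower in either list (limma). Of all tested genes 22.7% were higher and 31% lower in this comparison. The part of these marker shifts in the changes of Nkd1, Nkd2, Bambi and Ccnd1 was not tested. With Scl-Ab against vehicle, 4 of 12 endothelial genes and 1 of 12 smooth muscle genes were lower, 1 of 10 heart muscle genes was higher, and 0 macrophage, fibroblast and adipocyte genes were called (limma). Of all tested genes 2.64% were higher and 4.8% lower there. At an unadjusted p under 0.05, 8 of 10 heart muscle genes passed, all higher with Scl-Ab, and 6 of 12 endothelial genes, all lower. Of all tested genes 3378 of 13510 passed, with both directions counted together. At that level 1 of 12 smooth muscle, 2 of 14 macrophage, 0 of 12 fibroblast and 0 of 12 adipocyte genes passed. Nppa, which encodes the atrial natriuretic peptide, averaged 24.6 ± 37.9 with Scl-Ab (n = 10) and 2.55 ± 5.20 with vehicle (n = 9), 5.72-fold (limma adjusted p = 0.0387). The part of these shifts in the values of Nkd2 was not tested. Summed heart muscle values were 61.2 to 1199 with Scl-Ab, 39.9 to 546 with vehicle and 38.1 to 531 in WT.

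Adipocyte transcripts varied widely within each group, with summed values of 971 to 9116 with Scl-Ab, 705 to 11643 with vehicle and 484 to 3262 in WT. Several members followed them. In the vehicle group the adipocyte index (mean log2 value of 12 genes) correlated negatively with Bambi (Pearson r = -0.888, Spearman rho = -0.967, n = 9, exact permutation p = 0.000631 and 0.000165, adjusted p = 0.00986 and 0.00446). It also correlated negatively with Nkd1 (r = -0.851, rho = -0.900, n = 9, exact permutation p = 0.00169 and 0.00203, adjusted p = 0.0114 and 0.0274). For Axin2 the relation was positive (r = 0.908, rho = 0.767, n = 9, exact permutation p = 0.00143 and 0.0214, adjusted p = 0.0114 and 0.0825). Without the 2 libraries farthest from the median index, r was -0.836 for Bambi, -0.805 for Nkd1 and 0.783 for Axin2.

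In the Scl-Ab group the same relations were r = -0.697 for Bambi (rho = -0.806, permutation p = 0.0305 and 0.00699, adjusted p = 0.0687 and 0.0378), r = -0.705 for Nkd1 (rho = -0.770, permutation p = 0.0248 and 0.0132, adjusted p = 0.0609 and 0.0592) and r = 0.478 for Axin2 (rho = 0.442, permutation p = 0.165 and 0.206, adjusted p = 0.247 and 0.350), with n = 10. In WT (n = 10) the index correlated with Nkd2 (r = 0.891, rho = 0.818, permutation p = 0.00073 and 0.00562, adjusted p = 0.00986 and 0.0378; r = 0.676 without the 2 farthest). The adipocyte index also tended to rise with the WT replicate number, from 3.60 in replicate 20 to 6.28 in replicate 29. The WT relations of Nkd2 with this index and with the clock index are therefore not separate. For Apcdd1 in WT, r = 0.835 (rho = 0.503, permutation p = 0.00559 and 0.143, adjusted p = 0.0302 and 0.321) was 0.207 without WT replicates 20 and 21, so it rested on those libraries. The 27 relations were added after the values were seen, differences between groups were not tested, and all genes of a library share its scaling. The negative relations of Nkd1 and Bambi with the index were not seen in WT. There replicates 20 and 21, with the lowest index (3.60 and 4.79), had the lowest Nkd1 (33.7 and 32.8). Bambi was lowest in WT replicate 20 (3.79). With the index as a covariate, the log2 fold changes in vehicle against WT were -0.81 for Nkd1 (limma adjusted p = 6.52e-07), -0.77 for Bambi (limma adjusted p = 3.89e-06) and -0.34 for Axin2 (limma adjusted p = 0.00200). This fit used 1 slope for all groups, which these relations do not share.

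**Figure D5:**
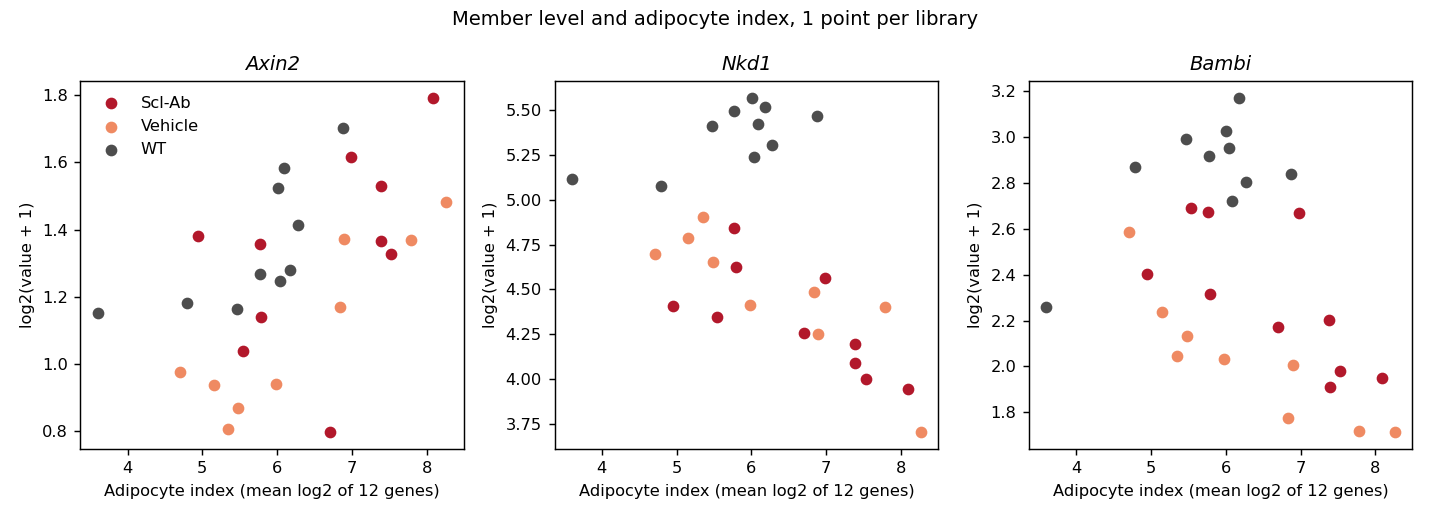
Level of Axin2, Nkd1 and Bambi (vertical axes, log2 of value + 1) against the adipocyte index (horizontal axes, mean log2 value of 12 genes) in 29 libraries, coloured by group. In the vehicle group (n = 9) Axin2 is higher, and Nkd1 and Bambi lower, in libraries with a higher index.

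Some members varied together within groups. Over deviations from the group means in 29 libraries, r was 0.73 for Apcdd1 with Ccnd1, 0.70 for Nkd2 with Prickle1, 0.70 for Ccnd1 with Prickle1 and 0.66 for Nkd1 with Bambi, which are descriptions over libraries that share their scaling. Axin2 and Nkd1 moved in opposite directions across the vehicle libraries (r = -0.853, rho = -0.883, n = 9, exact permutation p = 0.000761 and 0.00308, adjusted p = 0.0205 and 0.0415 over 27 relations), with r = -0.720 without the 2 farthest libraries. Axin2 and Nkd2 rose together across WT by rank (rho = 0.891, permutation p = 0.00117, adjusted p = 0.0316), while r = 0.770 did not pass (permutation p = 0.00801, adjusted p = 0.108, n = 10). Both tended to rise with the WT replicate number, with Axin2 at 1.22 in replicate 20 and 1.66 in replicate 29. The 27 relations cover the 9 other members, Lef1 included, in 3 groups, and none of the other 25 passed after adjustment. By the same measure, the genes most like Axin2 were Grsf1 (r = 0.886), Idh2 (r = 0.864), Sh3glb1 (r = 0.849), Tbc1d20 (r = 0.844) and S100b (r = 0.838), all more alike than any member, of which the closest was Prickle1 (r = 0.607). These values describe likeness across the same libraries and carry no test.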

How the data were processed

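Bulk RNA from the aortic arch was sequenced as stranded mRNA libraries, per the labels' protocols. Each deposited file gave 1 FPKM-like value per gene symbol, in a unit that the authors call FPKQ, per the file headers, and do not define there. Values summed to 496126 to 678907 per library with an 85th percentile of 6.99 to 7.30, and were taken as set to 1 upper quantile for all libraries. Genome build GRCm38 and DESeq2 1.10.1 are named per the submitters' processing notes, with no role given, while the aligner and the counting annotation are not given in these sources.

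A limma 3.58.1 model (trend, robust; R 4.3.3) was fitted to log2(value + 1) over all 29 libraries, with 3 group means. Tested genes reached 1 in 9 or more libraries (13510, among them 9 of 10 members), with Benjamini-Hochberg adjustment. The p-values measure the spread between libraries, whose number limits the precision. Counts were not at hand, and fragments were estimated from the step size of low values of genes with 1 transcript: 67.5 to 78.9% of these were whole multiples of the step to within 0.05. Positions, lengths and GC content came from GENCODE M21 (GRCm38), with values for 97.7% of tested genes, and promoters from RefSeq (GRCm38.p6). The fit was tested on simulated data.

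Members and lists were chosen with earlier results of these data known. Besides the members, Apoe and Sost, the text names from each list up to 3 genes with the smallest p in vehicle against WT and the 1 with the smallest p in Scl-Ab against vehicle, and the 5 genes most like Axin2. Gja1, Tcf7l2 and the thymocyte genes other than Cd1d1 fall outside this rule and were named after their values were seen. Alternatives were other pseudocounts (0.1 and 5), filters and scalings (TMM with trims of 30% and 5%, equal totals, GC and length trends removed), a Wilcoxon test, a fit of 2 groups alone, array weights, covariates, title code ranges, title codes as a block and leaving out libraries. Correlations within groups used exact permutation at n = 9 and 100000 permutations at n = 10.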

Additional observations from a re-analysis of the deposited data

Results flagged for a closer look

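Twist1 in vehicle replicate 5 stood apart from the other vehicle libraries at 13.4, with the next highest at 10.3. The gap was 0.661 of the group's whole range, above the critical value of 0.493 for 9 samples. It was the 1 case among 30 combinations of gene and group examined, and chance flags about 1 in 20. Without this library Twist1 was still called lower in vehicle against WT.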

How the results depend on the processing

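In vehicle against WT the calls of Nkd1, Nkd2, Bambi and Ccnd1 held in all alternatives in which each was tested, as did those of Nkd1, Nkd2, Znrf3, Apcdd1, Bambi and Ccnd1 in Scl-Ab against WT. The number of genes called between Scl-Ab and vehicle was the least stable value. The 1005 calls became 447 without a filter, 369 with equal totals, 412 with the Wilcoxon test, 309 in a fit of the 2 groups alone, 293 with array weights, 3 with the clock covariate and 1562 with the adipocyte covariate. Within title codes 12 to 15 there were 0 calls (4 Scl-Ab and 4 vehicle libraries), and within codes 27 to 33 there were 525. Leaving out 1 library gave 547 to 1223 calls, with 547, 628 and 607 without vehicle replicates 2, 5 and 6. The 1 member called there, Nkd2, became 0 without a filter, with a mean of at least 5 (where Nkd2 was not tested), with the Wilcoxon test, in the fit of the 2 groups alone, with array weights, with the clock covariate and within either code range. It stayed 1 when any library was left out. In Scl-Ab against WT 3 members rather than 6 were called with a mean of at least 5, since fewer were tested. Some signs turned, none of them to a called value. Twist1 became 0.032 in vehicle against WT and 0.062 in Scl-Ab against WT after GC and length trends were removed. Axin2 in Scl-Ab against WT became 0.036 with TMM scaling, 0.015 with equal totals and 0.056 with GC and length trends removed, and ran from -0.068 to 0.043 when 1 library was left out. Ccnd1 in Scl-Ab against vehicle became 0.29 within codes 12 to 15 and ran from -0.18 to 0.055 when 1 library was left out, and Prickle1 became -0.0048 within codes 27 to 33. The causes were not tested. Leaving out vehicle replicate 1 with Scl-Ab replicate 10 turned no sign, and leaving out WT replicates 20 and 21 was chosen after the values were seen. Each replicate number and each whole 4-digit title number occurs once in the series. The last 2 digits of the title number, used as the code here, coincide between the model groups for 8 codes (16 libraries). A fit with the title code as a replicate block, chosen after the values were seen, called 7 genes and 0 members, and the same 16 libraries unpaired called 180 genes and 0 members. In both, Nkd2 was at 0.44 (limma adjusted p = 0.242 paired and 0.0985 unpaired) and Ccnd1 turned to 0.14. The labels do not say that a code joins animals. The correlation of deviations within a code ran from -0.54 to 0.618, and 2 of 8 Scl-Ab libraries were most like the vehicle library of their code. With 8 pairs these values cannot show whether a code stands for anything shared. Depth limits Lef1, with an estimated median of 3.79 fragments per library.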
